A study of Homo sapiens with 12 samples.

Results

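The peptide hormone genes are 10 of the 28008 genes counted in QGP-1 and BON-1 cells: CGA, SST, GCG, INS, PPY, GHRL, NTS, GAST, CALCA and TAC1. They were chosen by name from hormones that pancreatic neuroendocrine tumors can make, with their levels and their DOX differences in these libraries already known. Both are therefore given as a description. Where a member is set against the adjusted p threshold, that outcome is part of the description and is no support for a difference. QGP-1 and BON-1 are established human lines from pancreatic neuroendocrine tumors. RNA was sequenced from QGP-1/tet-MUC1shRNA cells and from their BON-1/tet-MUC1shRNA counterparts, given vehicle (0.1% DMSO) or 500 ng/mL doxycycline (DOX) over 7 days, with 3 libraries in each of the 4 groups and 12 in all. The cells of all 4 groups carried the same DOX-inducible short hairpin RNA against MUC1 in the pLKO-tet-puro vector and had been selected as a transduced population with puromycin. QGP-1 cells grew in RPMI medium and BON-1 cells in DMEM/F-12, so that line and medium cannot be told apart. No library of DOX-treated cells with a control hairpin was analysed here, so that an effect of DOX itself and an effect of the hairpin cannot be told apart. The libraries are bulk samples, in which a change in the number of cells that make a hormone and a change in RNA per cell cannot be told apart.

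Peptide hormones are made as larger precursors that enter the secretory pathway, are cut by prohormone convertases in dense-core granules, trimmed by carboxypeptidase E and, for many of them, amidated at the C terminus by PAM. Islet cells are classed by the hormone gene they transcribe most, and neuroendocrine tumors often make hormones that their tissue of origin does not. Several hormone genes carry a cAMP response element (CRE) near the transcription start, and those of SST and CGA are textbook examples.

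The genes most abundant among the members in at least 1 line were CALCA, which encodes both calcitonin and the calcitonin gene-related peptide; NTS, the precursor of neurotensin; CGA, the alpha subunit shared by the gonadotropins and thyrotropin; and SST, the precursor of somatostatin. In GRCh38, CALCA occupies chr11:14966622-14972354 (minus strand). NTS lies on the plus strand at chr12:85874295-85882992, CGA on the minus strand at chr6:87085498-87095106 and SST on the minus strand at chr3:187668912-187670394. The 250 bases that precede the transcription start of each, taken from RefSeq (GRCh38.p14), are shown because a CRE in this window is a known feature of some hormone genes and was not used to choose the members. They are written 5′ to 3′ on the gene's own strand, with capitals marking the CRE (TGACGTCA), its core (TGACG, or CGTCA on the other strand) and the TATA box (TATAAA, or TTTATA on the other strand). A core inside a full CRE is part of the same letters.
CGA (chr6:87095107-87095356, minus strand): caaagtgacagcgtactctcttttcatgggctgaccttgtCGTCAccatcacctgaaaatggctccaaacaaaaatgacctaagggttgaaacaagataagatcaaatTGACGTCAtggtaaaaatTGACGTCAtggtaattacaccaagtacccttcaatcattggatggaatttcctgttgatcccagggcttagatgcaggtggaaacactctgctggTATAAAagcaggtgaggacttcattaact
SST (chr3:187670395-187670644, minus strand): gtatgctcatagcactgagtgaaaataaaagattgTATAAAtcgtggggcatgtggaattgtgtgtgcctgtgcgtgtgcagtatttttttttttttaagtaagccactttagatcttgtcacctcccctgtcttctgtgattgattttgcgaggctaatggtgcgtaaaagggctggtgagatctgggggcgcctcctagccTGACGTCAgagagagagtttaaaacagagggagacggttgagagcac
NTS (chr12:85874045-85874294, plus strand): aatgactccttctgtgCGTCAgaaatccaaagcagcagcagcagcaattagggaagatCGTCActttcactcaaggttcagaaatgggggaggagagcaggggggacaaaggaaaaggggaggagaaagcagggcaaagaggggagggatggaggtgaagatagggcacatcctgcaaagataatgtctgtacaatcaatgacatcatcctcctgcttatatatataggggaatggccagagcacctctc
CALCA (chr11:14972352-14972601, minus strand): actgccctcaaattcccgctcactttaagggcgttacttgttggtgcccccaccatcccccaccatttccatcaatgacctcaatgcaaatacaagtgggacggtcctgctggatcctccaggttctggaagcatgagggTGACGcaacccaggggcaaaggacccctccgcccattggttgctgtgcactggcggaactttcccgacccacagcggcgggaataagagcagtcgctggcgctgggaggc

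The CGA window held 2 full CREs, at bases 142 to 135 and 124 to 117 before the start, and another core at 210 to 206. The SST window held 1 full CRE, at bases 47 to 40 before the start. The NTS window held 2 CRE cores and no full CRE, and the CALCA window 1 CRE core. The TATA box letters lay at bases 29 to 24 before the start in CGA and at 215 to 210 in SST, and at 0 places in NTS and CALCA. They were marked wherever they occurred in the window. Among the other members, INS and TAC1 had 1 CRE core each, and GCG, PPY, GHRL and GAST had neither the CRE nor its core in this window. Of 35116 RefSeq promoters of the same length, 1.65% held the full CRE, 21.2% the core and 10.7% the TATA box letters, on either strand. These matches describe letters in a window, not binding.

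QGP-1 cells transcribed 4 of the 10 members strongly (CALCA, NTS, CGA and SST), and BON-1 cells 1 (NTS). In QGP-1 cells 5 members had enough counts to be fitted (CALCA, NTS, CGA, SST and TAC1), and in BON-1 cells 3 (NTS, SST and CGA). INS and GAST, the genes of insulin and gastrin, had 0 counts in all 12 libraries. GCG, the precursor of glucagon, also had 0 counts in every QGP-1 library, and PPY and TAC1 had 0 counts in every BON-1 library. A count of 0 leaves room for a level of up to 3 counts, which corresponded to between 0.0603 and 0.0787 normalized counts (CPM) in QGP-1 libraries and between 0.106 and 0.192 CPM in BON-1 libraries. CPM here means counts adjusted for library size and for a TMM scaling factor within each line, and these limits cover counting error only.

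**Figure D1:**
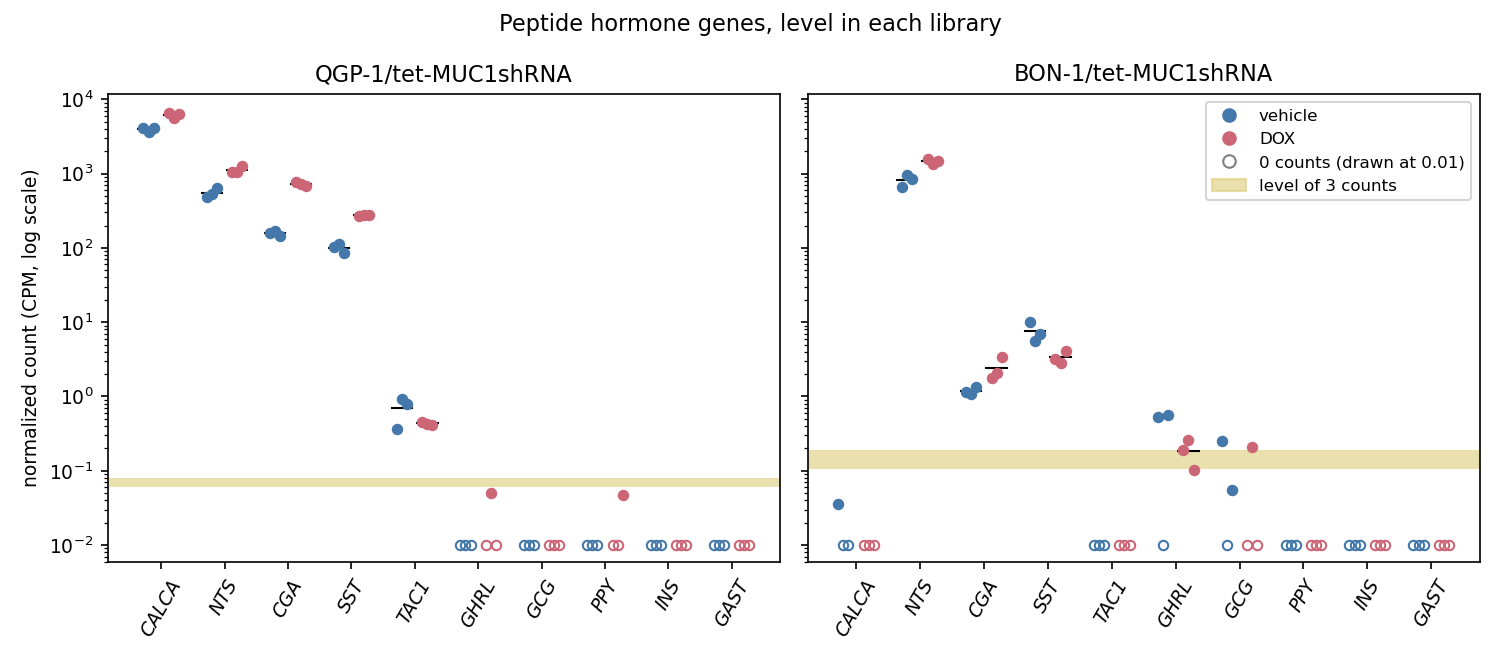
Normalized count (CPM, log scale) of the 10 peptide hormone genes in each of 3 vehicle (blue) and 3 DOX (red) libraries of QGP-1 (left) and BON-1 (right) cells, with a black bar at the mean of each group that had counts in all its libraries, open circles for libraries at 0 counts and a band for the level of 3 counts. In QGP-1 cells CALCA, NTS, CGA and SST lie at 84.9 CPM or more in every library, whereas in BON-1 cells NTS lies at 668 CPM or more and the other 9 members at 9.93 CPM or less.

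The remaining traces were a handful of reads. GHRL, the precursor of ghrelin, had 2 counts in DOX replicate 2 of QGP-1 cells and 0 in the other 5 libraries. PPY, which encodes pancreatic polypeptide, had 2 counts in DOX replicate 3 of QGP-1 cells and 0 in the others. In BON-1 cells GHRL had 15, 0 and 10 counts with vehicle and 3, 5 and 2 with DOX, and the groups overlapped. GCG had 7, 0 and 1 counts with vehicle and 0, 4 and 0 with DOX, also with overlap, and CALCA had a single count, in vehicle replicate 1. The GHRL gene overlaps the antisense transcript GHRLOS over 7194 bases, GHRLOS had 24 to 61 counts per BON-1 library, and whether the counting used strand is not given in the sources used here, so the GHRL counts are uncertain. INS overlaps the readthrough gene INS-IGF2 on the same strand over 1431 of its 1443 bases, and INS-IGF2 had 0 counts in every library as well. How reads that match both genes were counted is not given in the sources used here, so the INS counts are uncertain too.

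CALCA was the most abundant member in QGP-1 cells and was higher with DOX. Its level was 4111, 3679 and 4101 CPM in the 3 vehicle libraries and 6623, 5657 and 6273 CPM in the 3 DOX libraries. Every DOX library lay above every vehicle library. The means were 3964 ± 246 CPM (SD, n = 3) and 6184 ± 489 CPM (SD, n = 3), with a log2 fold change of 0.64 (standard error 0.07). By TPM, which divides by gene length, CALCA ranked 12th to 15th of 25540 genes within the vehicle libraries and 6th to 7th within the DOX libraries, and it took 0.368% to 0.410% and 0.574% to 0.652% of all counts. Gene-level counts do not separate the calcitonin from the CGRP transcript. CALCA shares sequence with its paralog CALCB, and the GENCODE annotation draws a CALCB model across the CALCA locus on the opposite strand, so reads of the pair could have been split.

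NTS, whose product neurotensin acts on gut motility, was the member that both lines transcribed strongly. In QGP-1 cells it stood at 483, 533 and 642 CPM with vehicle and at 1041, 1058 and 1260 CPM with DOX. The corresponding values in BON-1 cells were 668, 964 and 841 CPM and 1563, 1356 and 1470 CPM. In both lines the DOX libraries were all above the vehicle libraries. The QGP-1 means were 553 ± 81.4 and 1120 ± 122 CPM (SD, n = 3 each), 2.03-fold higher with DOX (log2 fold change 1.02, standard error 0.10). The BON-1 means were 825 ± 149 and 1463 ± 103 CPM (SD, n = 3 each), 1.77-fold higher (log2 fold change 0.83, standard error 0.10). For NTS the log2 fold change in BON-1 cells less that in QGP-1 cells was −0.18 (standard error 0.16).

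CGA had the largest log2 fold change of the members in QGP-1 cells. It stood at 161, 170 and 145 CPM with vehicle and at 762, 735 and 681 CPM with DOX. The 2 groups were far apart in relation to their own spread. The means were 159 ± 12.7 and 726 ± 41.5 CPM (SD, n = 3 each), 4.58-fold higher with DOX (log2 fold change 2.19, standard error 0.08). That was the 26th highest value among the 15089 genes tested in QGP-1 cells. In BON-1 cells CGA was a low gene, with 32, 24 and 24 raw counts with vehicle and 28, 40 and 66 with DOX, or 1.14, 1.06 and 1.33 CPM against 1.80, 2.08 and 3.36 CPM. The DOX libraries were above the vehicle libraries, with replicate 3 well above the other two. The BON-1 log2 fold change was 1.05 (standard error 0.37), and it ranged from 0.71 without DOX replicate 3 to 1.21 when 1 library at a time was left out, past the adjusted p threshold in 3 of 6 such fits. It missed the threshold without vehicle replicate 1 (1.02), without vehicle replicate 2 (0.97) and without DOX replicate 3. DOX replicate 3 also had the most MUC1 of the BON-1 DOX libraries, 3.97 CPM against 1.48 and 2.65 CPM, and the part of this library in the CGA value was not tested beyond leaving it out. The hormones that CGA completes need a beta subunit, and those genes were almost silent: CGB5 and CGB8 had 0 counts in all 12 libraries, CGB3 at most 4 and CGB7 at most 16 counts in a library, and CGB2 reached 41 counts in a QGP-1 library but 0 in BON-1 cells. The CGB genes are near-identical copies, so their counts are uncertain.

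SST, whose product restrains hormone release, went in opposite directions in the lines. In QGP-1 cells it stood at 104, 115 and 84.9 CPM with vehicle and at 273, 280.0 and 279 CPM with DOX. The DOX libraries lay above the vehicle libraries and close to each other. The means were 101 ± 15.1 and 278 ± 3.72 CPM (SD, n = 3 each), 2.74-fold higher, with a log2 fold change of 1.46 (standard error 0.09). In BON-1 cells SST stood at 9.93, 5.63 and 6.94 CPM with vehicle and at 3.21, 2.81 and 4.07 CPM with DOX. Here the DOX libraries lay below the vehicle libraries, of which replicate 1 was the highest. The means were 7.50 ± 2.21 and 3.36 ± 0.645 CPM (SD, n = 3 each), 2.23-fold lower with DOX (log2 fold change −1.16, standard error 0.23), with values between −1.35 and −0.90 when each library was left out in turn. The log2 fold change in BON-1 cells less that in QGP-1 cells was −2.62 (standard error 0.23) for SST and −1.11 (standard error 0.26) for CGA.

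TAC1, the precursor of substance P and neurokinin A, was detected in QGP-1 cells only as a low gene. It had 14, 40 and 40 raw counts with vehicle and 22, 17 and 18 with DOX, or 0.367, 0.925 and 0.804 CPM against 0.456, 0.431 and 0.418 CPM. The groups overlapped because vehicle replicate 1 lay below all 3 DOX libraries. The log2 fold change was −0.69 (standard error 0.47), and it was not past the threshold, with values between −0.98 and −0.44 when each library was left out in turn.

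**Figure D2:**
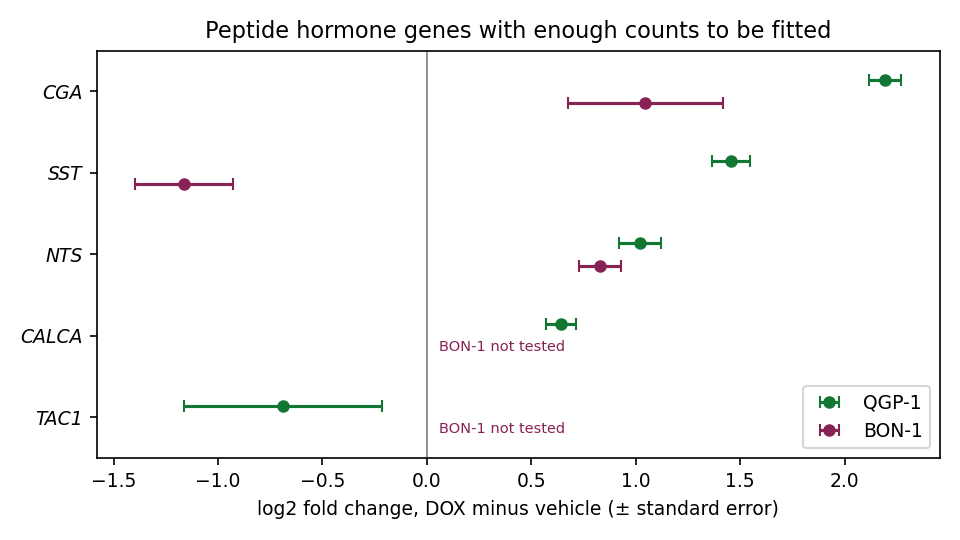
Log2 fold change, DOX minus vehicle, of the members with enough counts to be fitted, from edgeR within each line (points, with bars of 1 standard error; 3 libraries per group), with QGP-1 in green and BON-1 in purple. SST lies at 1.46 for QGP-1 and at −1.16 for BON-1, whereas CGA and NTS lie above 0 in both lines.

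Against the whole table, 4 of the 5 members fitted in QGP-1 cells (CALCA, NTS, CGA and SST) passed an adjusted p below 0.05 as higher with DOX, where 17.3% of all genes tested were higher and 35.0% were called in either direction. In BON-1 cells 2 of the 3 members fitted passed as higher (CGA and NTS) and 1 as lower (SST), where 17.0% of all genes tested were higher and 35.3% were called in either direction. The vehicle and DOX libraries did not overlap for 4 members in QGP-1 and 3 members in BON-1, beside 46.8% and 46.3% of all genes tested. The interaction of line and DOX was called for 16.7% of the 16598 genes tested. Because the members were chosen with these differences known, and those at or near 0 counts never entered the fits, nothing is read from the counts. Together the members took 0.450% to 0.490% of all counts in QGP-1 vehicle libraries and 0.784% to 0.864% in QGP-1 DOX libraries, most of it CALCA. In BON-1 cells these shares were 0.0673% to 0.101% and 0.134% to 0.153%, nearly all of it NTS.

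The order of the members was read within each library from the deposited TPM values, since these account for gene length. In QGP-1 vehicle libraries the order was CALCA, NTS, then SST and CGA without a clear order, with a CGA to SST ratio of 0.913 to 1.05. With DOX it was CALCA, then NTS and CGA without a clear order, then SST. The ratio of CGA to SST was 0.974 ± 0.0707 with vehicle and 1.61 ± 0.110 with DOX (SD, n = 3 each). That of NTS to CGA was 2.06 ± 0.463 with vehicle and 0.906 ± 0.152 with DOX, the latter on both sides of 1 (0.798 to 1.08). CALCA exceeded NTS 6.15 ± 0.936 times with vehicle and 4.70 ± 0.606 times with DOX. By TPM, CGA ranked 211th to 254th of 25540 genes with vehicle and 34th to 40th with DOX. NTS ranked 96th to 131st and 37th to 43rd, and SST 197th to 268th and 65th to 68th.

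**Figure D3:**
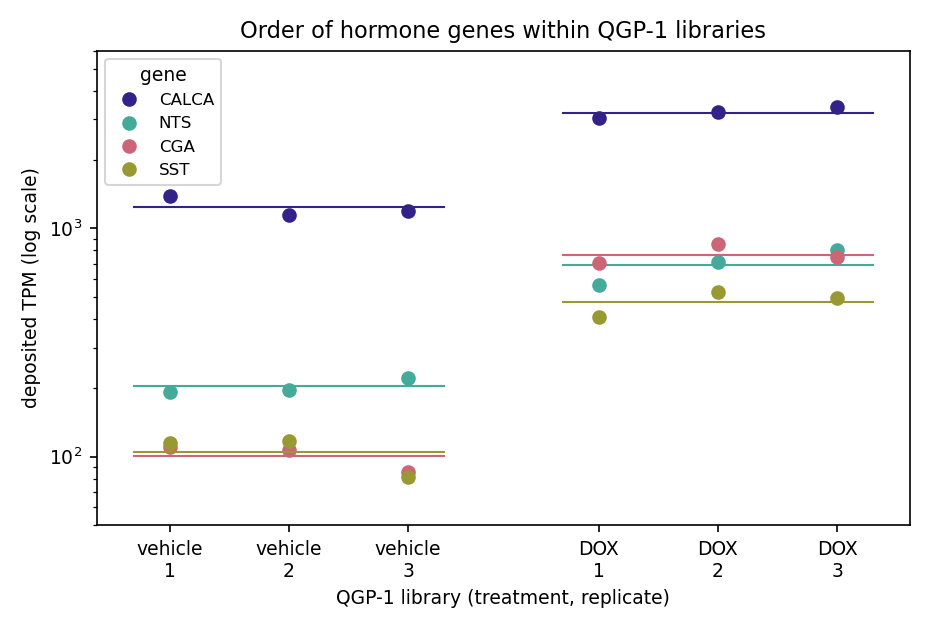
Deposited TPM (log scale) of CALCA, NTS, CGA and SST in each QGP-1 library, with a line at the mean of each group of 3. SST and CGA lie together in the vehicle libraries, and CGA lies with NTS above SST in the DOX libraries. Heights between libraries also carry the share of TPM held by 3 noncoding RNAs, so the plot is to be read within a library.

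In BON-1 cells the order was NTS, SST, CGA in every library. NTS exceeded SST 43.2 ± 18.7 times by TPM with vehicle and 160 ± 25.8 times with DOX (SD, n = 3 each), and the ratio of CGA to SST was 0.102 ± 0.0271 with vehicle and 0.437 ± 0.0836 with DOX. NTS ranked 58th to 82nd of 25544 genes with vehicle and 32nd to 34th with DOX. SST ranked 2715th to 4345th and 5484th to 6920th, and CGA 10643rd to 11204th and 7818th to 9869th. The TPM of a gene should not be compared between libraries without regard to RN7SK, RN7SL1 and RN7SL2. These took 78.8% to 80.3% of TPM in QGP-1 vehicle libraries and 71.2% to 75.4% in QGP-1 DOX libraries. In BON-1 libraries they took 50.9% to 65.6% with vehicle and 53.4% to 74.3% with DOX, with DOX replicate 3 the lowest of the DOX libraries.

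Between the lines, levels were set on a scale common to the 12 libraries. CGA was 142-fold higher in QGP-1 than in BON-1 cells with vehicle and 315-fold higher with DOX, and SST was 14.2-fold and 86.5-fold higher. In both cases no QGP-1 library overlapped a BON-1 library of the same treatment. For CALCA with DOX, where all 3 BON-1 libraries had 0 counts, the level in QGP-1 cells was at least 38855-fold higher, taking 3 counts per library as the limit. TAC1 was at least 5.46-fold higher in QGP-1 cells with vehicle and at least 2.73-fold with DOX by the same limit. NTS went the other way, 1.41-fold higher in BON-1 cells with vehicle, where the libraries of the lines overlapped, and 1.25-fold with DOX, where they did not.

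The genes whose profiles over the 12 libraries were most like those of the 3 members called in both lines were found by Pearson's r of log2(CPM + 1), centred within each line, among 13535 genes tested in both lines. For CGA they were ZNF805 (r = 0.988), KMT2E (0.987) and GHR (0.984). For SST they were KIF5C (0.965), PIK3R1 (0.962) and ERAP1 (0.958), and for NTS they were NT5C3A (0.975), NDEL1 (0.973) and RUFY3 (0.963). The points share libraries and fall into vehicle and DOX groups, and no p is given. CGA was a low gene in BON-1 cells, where adding 1 to CPM narrows its differences. The r values of CGA therefore rest mostly on the QGP-1 libraries, and likeness within BON-1 cells alone was not tested.

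Genes around the hormones, which are not members, were followed through 4 lists of 132 genes in all: relatives of the hormones, other peptide hormones, receptors of the members, and enzymes and partners of prohormone processing. These lists were also chosen with earlier results of these data known. Their calls and adjusted p-values below are therefore a description and no support for a difference. In QGP-1 cells 44 of them were tested, of which 5 fell, 9 rose and 30 were not called (median log2 fold change 0.13, against −0.01 over all genes tested). In BON-1 cells 44 were tested, of which 12 fell, 8 rose and 24 were not called (median 0.00, against −0.01). Another 33 had 0 counts in every QGP-1 library and 44 in every BON-1 library. Of the 55 list genes that could be tested for an interaction of line and DOX, 10 passed, with BON-1 above QGP-1 for 3 of them, and over all genes the share that passed was 16.7%.

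Among the 36 relatives of the hormones, 1 of 6 genes tested fell and 1 rose in QGP-1 cells (median −0.07), and 3 of 7 fell and 1 rose in BON-1 cells (median −0.29). CALCB, which encodes the second form of CGRP, fell in both lines although CALCA was higher in QGP-1 cells. A QGP-1 library had 1601 to 4706 counts of CALCB and at least 156780 of CALCA. How reads that match both genes were counted is not given in the sources used here, so the QGP-1 counts of CALCB are uncertain. The CALCB log2 fold change in QGP-1 cells was −0.84 (standard error 0.10, edgeR adjusted p = 3.67e-05), from 81.7 ± 11.1 to 45.6 ± 4.46 CPM (SD, n = 3 each). That call was lost in limma on log2(TPM + 1), where the value was −0.098 and all genes had a median of 0.59, and held there without RN7SK, RN7SL1 and RN7SL2 (−0.51). In BON-1 cells it was −1.12 (standard error 0.32, edgeR adjusted p = 0.00711), a call lost without vehicle replicate 3 (−0.96). IGF2, the gene of insulin-like growth factor 2, rose from a low level in QGP-1 cells (log2 fold change 1.45, standard error 0.38, edgeR adjusted p = 0.00957) and fell in BON-1 cells from a high level (−0.32, standard error 0.09, adjusted p = 0.00694). In BON-1 cells ADCYAP1, the precursor of the neuropeptide PACAP, fell from 97.7 ± 4.24 to 42.3 ± 3.25 CPM (SD, n = 3 each), a log2 fold change of −1.21 (standard error 0.09, edgeR adjusted p = 1.30e-11). ADM, the precursor of the vasodilator adrenomedullin, rose there by 1.05 (standard error 0.12, edgeR adjusted p = 5.87e-08) and had −0.05 in QGP-1 cells, where it was not called.

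Of the 52 other peptide hormones, 3 of 15 tested fell and 2 rose in QGP-1 cells (median 0.15), and 1 of 10 fell and 2 rose in BON-1 cells (median 0.13). GRP, the precursor of gastrin-releasing peptide, rose in QGP-1 cells from 7.59 ± 0.620 to 25.3 ± 2.05 CPM (SD, n = 3 each), a log2 fold change of 1.73 (standard error 0.11, edgeR adjusted p = 1.73e-07). SPX, the precursor of spexin, fell there by 1.75 (standard error 0.25, edgeR adjusted p = 0.000127), and APELA, the precursor of a ligand of the apelin receptor, fell by 1.25 (standard error 0.25, edgeR adjusted p = 0.00142). In BON-1 cells GAL, the precursor of galanin, fell from 21.9 ± 1.75 to 6.08 ± 0.683 CPM (SD, n = 3 each), a log2 fold change of −1.85 (standard error 0.15, edgeR adjusted p = 1.14e-10). GAL was not called in QGP-1 cells, at −0.09. PTHLH, the gene of parathyroid hormone-related protein, rose in BON-1 cells (1.11, standard error 0.29, edgeR adjusted p = 0.00374), a call lost without DOX replicate 3 (0.79). STC1, which encodes stanniocalcin 1, was called there at 0.27 (standard error 0.09, edgeR adjusted p = 0.0211), and kept its call in 3 of 6 fits with 1 library removed (lost without vehicle replicate 2, DOX replicate 2 or DOX replicate 3). It also lost the call with library size in place of TMM (0.23), and had −0.085 on the deposited TPM values. In QGP-1 cells STC1 was called higher as well, at 0.33 (standard error 0.09, edgeR adjusted p = 0.00868).

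The receptors of the members, of which 28 were listed, had 1 lower and 2 higher of 9 tested in QGP-1 cells (median 0.39) and 5 lower and 3 higher of 11 tested in BON-1 cells (median −0.21). SSTR2, a somatostatin receptor, rose in QGP-1 cells from 1.37 ± 0.354 to 6.42 ± 1.63 CPM (SD, n = 3 each), a log2 fold change of 2.22 (standard error 0.25, edgeR adjusted p = 1.66e-05). In BON-1 cells SSTR2 had −0.75 (standard error 0.26, edgeR adjusted p = 0.0263), and that call held in 2 of 6 fits with 1 library removed (lost without any vehicle library or DOX replicate 1, with −0.47 at the smallest) and was lost in DESeq2. SSTR5 had 0.83 in QGP-1 cells, which was not called, and in BON-1 cells −0.69 (standard error 0.26, edgeR adjusted p = 0.0378), a call that held in 1 of the 6 fits, that without vehicle replicate 3, and was lost in DESeq2, with the replicate block (−0.67) and in the fit of all 12 libraries (−0.68). SSTR1, another somatostatin receptor, fell in BON-1 cells from 122 ± 11.2 to 89.4 ± 5.03 CPM (SD, n = 3 each), a log2 fold change of −0.45 (standard error 0.08, edgeR adjusted p = 8.26e-05). In QGP-1 cells SSTR1 had −0.70 and missed the threshold (edgeR adjusted p = 0.0647), although the DOX libraries lay below the vehicle libraries, and it passed in the fit of all 12 libraries (−0.69) and without DOX replicate 1 (−0.88). CALCRL, the receptor that binds CGRP or adrenomedullin depending on its RAMP partner, fell in QGP-1 cells by 0.78 (standard error 0.20, edgeR adjusted p = 0.00727, a call lost in limma on TPM without the 3 noncoding RNAs at −0.28) and rose in BON-1 cells by 0.67 (standard error 0.10, edgeR adjusted p = 5.28e-06). Its partners RAMP1 and RAMP2 fell in BON-1 cells, by 0.97 (standard error 0.14, edgeR adjusted p = 5.25e-06) and 2.15 (standard error 0.29, adjusted p = 1.69e-06), whereas RAMP1 had 0 counts in every QGP-1 library and RAMP2 was not called there (0.47). CALCR, the calcitonin receptor, rose in BON-1 cells by 1.18 (standard error 0.34, edgeR adjusted p = 0.0082), a call lost in the fit of all 12 libraries (1.19) and in limma on TPM without the 3 noncoding RNAs (0.58). For neurotensin, the sorting receptor SORT1 rose in QGP-1 cells by 0.39 (standard error 0.06, edgeR adjusted p = 0.000331) and had 0.02 in BON-1 cells, where it was not called. The receptor NTSR1 had at most 3 counts in a QGP-1 library, and in BON-1 cells it stood at 11.1 CPM with vehicle and 11.0 CPM with DOX and was not called.

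Of the 16 prohormone processing genes, MBOAT4 and PCSK5 had too few counts to be tested in QGP-1 cells. Of 14 tested in QGP-1 cells 4 rose and 10 were not called (median 0.05), and of 16 tested in BON-1 cells 3 fell and 2 rose (median −0.08). PAM, the amidating enzyme, rose in QGP-1 cells from 1065 ± 55.1 to 1600 ± 75.4 CPM (SD, n = 3 each), a log2 fold change of 0.59 (standard error 0.07, edgeR adjusted p = 2.18e-05), and in BON-1 cells it fell by 0.34 (standard error 0.09, adjusted p = 0.00283). CPE, the gene of carboxypeptidase E, rose in QGP-1 cells by 0.26 (standard error 0.06, edgeR adjusted p = 0.00677). SCG5, a chaperone of the convertase PCSK2, rose there by 0.28 (standard error 0.08, edgeR adjusted p = 0.0137), a call lost without vehicle replicate 2 (0.21) or DOX replicate 3 (0.22). The convertases PCSK1 and PCSK2, named here for their role and not by the rule, had −0.11 and −0.13 in QGP-1 cells and were not called. In BON-1 cells PCSK1 fell from 554 ± 40.5 to 473 ± 3.20 CPM (SD, n = 3 each), a log2 fold change of −0.23 (standard error 0.08, edgeR adjusted p = 0.0231) whose call was lost without vehicle replicate 1 (−0.17) or vehicle replicate 3 (−0.24). PCSK2 had 4 to 37 counts per BON-1 library and −1.12 there, which was not called, though it passed in the fit of all 12 libraries (−1.13). In BON-1 cells MBOAT4, the enzyme that acylates ghrelin, rose from 1.54 ± 0.469 to 9.14 ± 0.809 CPM (SD, n = 3 each), a log2 fold change of 2.54 (standard error 0.24, edgeR adjusted p = 3.06e-09), while GHRL itself had at most 15 counts in a library. PCSK1N, an inhibitor of PCSK1, rose in BON-1 cells by 0.92 (standard error 0.20, edgeR adjusted p = 0.00059). It also rose in QGP-1 cells by 0.63 (standard error 0.16, edgeR adjusted p = 0.00631), where the vehicle and DOX libraries overlapped. In BON-1 cells FURIN, a convertase of the constitutive pathway, fell by 0.35 (standard error 0.10, edgeR adjusted p = 0.00983), a call lost without vehicle replicate 2 (−0.31).

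**Figure D4:**
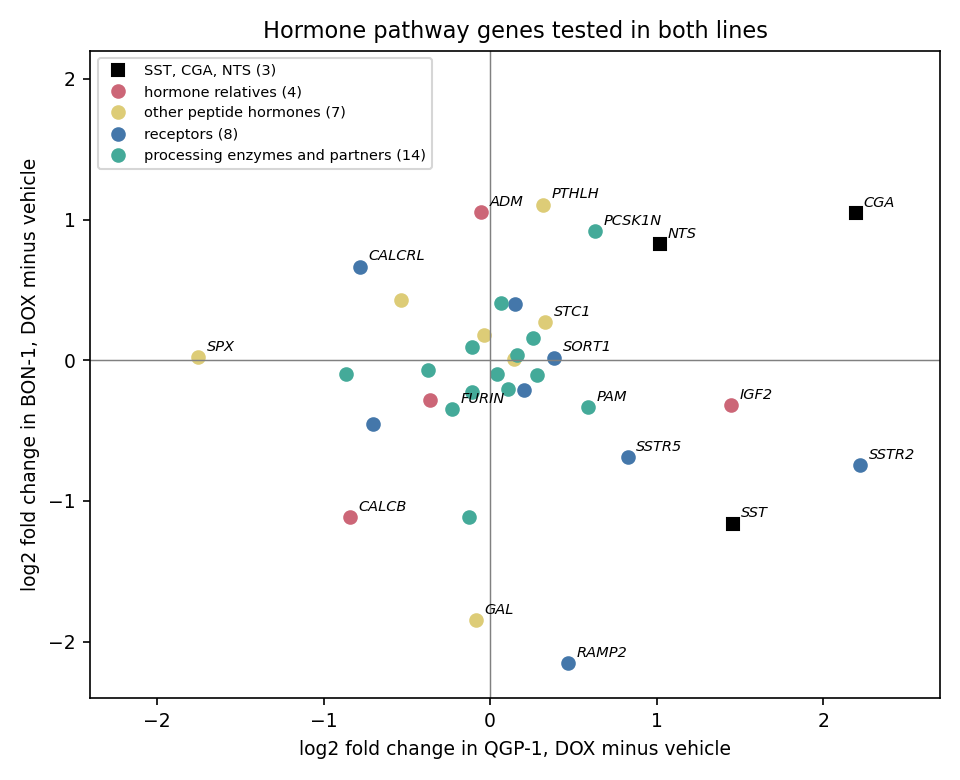
Log2 fold change, DOX minus vehicle, in QGP-1 (x axis) against BON-1 (y axis) cells for the 33 list genes (circles, coloured by list) and the 3 members (black squares) tested in both lines. SSTR2, IGF2, PAM, SSTR5 and RAMP2 are among the list genes that lie with SST at the lower right. Their values were higher with DOX in QGP-1 cells and lower in BON-1 cells. SSTR5 and RAMP2 were not called in QGP-1 cells, and the BON-1 calls of SSTR2 and SSTR5 were lost in DESeq2. CALCB lies at the lower left.

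Depth was 38224144 to 50525926 counts for QGP-1 libraries and 15981954 to 28484324 for BON-1 libraries, and MUC1, the target of the hairpin, was lower with DOX in every library (log2 fold change −2.91, standard error 0.23, in QGP-1 and −2.79, standard error 0.22, in BON-1 cells). Of 11 neuroendocrine markers 10 were tested in each line, of which 2 fell and 3 rose in QGP-1 and 2 fell and 2 rose in BON-1. Over all genes tested, 35.0% were called in either direction in QGP-1 and 35.3% in BON-1. The QGP-1 markers were NCAM1 (log2 fold change −0.51), UCHL1 (−0.56), CHGB (0.39), SCG3 (0.34) and SYT1 (0.24). The BON-1 markers were CHGA (log2 fold change −1.46), SYP (−0.34), SCG2 (0.45) and SCG3 (0.27), and the calls of SYP (lost without vehicle replicate 1, vehicle replicate 3 or DOX replicate 3) and SCG3 (lost without vehicle replicate 2 or DOX replicate 3) were not stable to leaving out a library. The summed marker level was 4464 to 5176 CPM with vehicle and 5234 to 5923 CPM with DOX in QGP-1, and 11640 to 15039 CPM and 9361 to 9815 CPM in BON-1. SCG2 held the largest part of the QGP-1 sum, with means of 2783 CPM with vehicle and 3196 CPM with DOX. It was not called there in the main fit (log2 fold change 0.20), so the sum does not stand for the single markers. The BON-1 sum fell through CHGA, with means of 8098 CPM with vehicle and 2934 CPM with DOX. SYP also fell there (35.0 to 27.8 CPM), whereas SCG2 (2696 to 3684 CPM) and SCG3 (928 to 1116 CPM) rose. NEUROD1 had 0 counts in every QGP-1 library and NCAM1 at most 2 in a BON-1 library. Of 5 acinar markers, CTRB1 had 0 counts in all 12 libraries, while the summed level moved with DOX through PRSS1, from 82.6 to 151 CPM down to 28.9 to 40.0 CPM in QGP-1 and from 36.0 to 45.9 CPM down to 19.5 to 27.0 CPM in BON-1 cells. Of 5 fibroblast markers 1 was tested per line, with sums of 1.73 to 3.59 and 1.14 to 1.29 CPM in QGP-1 and of 5.22 to 6.60 and 10.7 to 11.5 CPM in BON-1 cells, the latter from LUM. Of 5 leukocyte markers only CD68 was tested, with sums of 23.7 to 26.4 and 48.5 to 53.0 CPM in BON-1 cells and of 0.577 to 1.47 and 1.25 to 2.01 CPM in QGP-1 cells, while CD3E had at most 1 count in any library. Ductal markers summed to 171 to 177 and 134 to 152 CPM in QGP-1 and to 300.5 to 345 and 423 to 526 CPM in BON-1 cells. The part of these genes in the results above was not tested.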

How the data were processed

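Stranded mRNA libraries were prepared by the authors and aligned to GRCh38 with STAR, and DESeq2 is named in their processing notes. For each line they deposited raw counts per gene and TPM values, which divide counts by gene length and scale each library to the same total. How reads were assigned to genes, the strand setting and the treatment of multiply matching reads are not given in the sources used here. The 10 members and the lists of related genes were chosen with earlier results of these data known.

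Counts were tested within each line (3 against 3 libraries) with edgeR 4.0.16 in R 4.3.3, using its default filter on low counts, TMM, the quasi-likelihood test and Benjamini-Hochberg adjustment over all genes tested, with a threshold of 0.05 and no minimum fold. The filter kept 15089 genes in QGP-1 and 14625 in BON-1 cells. A standard error is the log2 fold change divided by the square root of F. The difference between lines was the interaction in 1 fit of the 12 libraries. In the main results TPM served only to order genes within a library. Among the alternatives it was also used for the limma fits and for level ratios between the lines. Replicates differed by more than sampling noise in all 12 pairs (chi-square per gene 5.93 to 29.7). The labels number 3 samples per group, and the paper describes biologic triplicates and RNA from cells cultured in triplicate. On that description the p-values measure the spread between those cultures. The scripts were tested on simulated counts.

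Named from each list were up to 3 called genes per line with the largest log2 fold change, if their groups did not overlap and their mean log2 CPM was 0 or more, and up to 3 with a called interaction. Genes named beyond that (the CGB genes, NTSR1, SSTR1, PCSK1, PCSK2, CHGA and the markers) were chosen for their role after their values were seen. Alternatives were DESeq2 1.42.0, library size in place of TMM, other filters on low counts, a block for the replicate number, 1 fit of the 12 libraries, limma 3.58.1 on log2(TPM + 1) with and without RN7SK, RN7SL1 and RN7SL2, and leaving out each library. Promoters came from RefSeq and gene positions from GENCODE on GRCh38. A protein sequence was not used here.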

Additional observations from a re-analysis of the deposited data

Results flagged for a closer look

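The log2 fold change with DOX differed between the lines for 12 of the members and list genes at an adjusted p below 0.05 for the interaction of line and DOX in edgeR, which 16.7% of all 16598 genes tested also passed. For the 2 members among them the difference is a description, since they were chosen with it known: SST had −2.62 and CGA −1.11 (BON-1 minus QGP-1). The lists that hold the other 10 were also chosen with earlier results of these data known, so their values are a description too. Among the 10 list genes, SSTR2 had −2.96 (edgeR adjusted p = 9.45e-06), RAMP2 −2.62 (0.00332), GAL −1.75 (4.10e-07), IGF2 −1.75 (8.97e-05), SSTR5 −1.51 (0.0286), PAM −0.91 (4.26e-06) and SORT1 −0.36 (0.0145). The 3 with a higher value in BON-1 cells were SPX at 1.79 (0.00742), CALCRL at 1.46 (2.30e-05) and ADM at 1.11 (0.000925). CALCRL, SSTR2, IGF2 and PAM were called in opposite directions in the lines. All 12 differences kept their direction and stayed past the threshold with library size in place of TMM and with DESeq2.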

How the results depend on the processing

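The members were chosen with their DOX differences known, so their values under the alternatives are a description and no support. In BON-1 cells CGA (0.47) and NTS (0.47) were not past the threshold in limma on log2(TPM + 1), and leaving out 1 library gave CGA values from 0.71 to 1.21. TAC1 had no value in limma on the deposited TPM, because its mean TPM is under 1.

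The counts moved most in limma on TPM, which changed the scaling, test and filter together. On log2(TPM + 1) the fold change of the median gene, in log2, was 0.59 in QGP-1 and −0.31 in BON-1 cells, and limma called 91 genes lower and 9166 higher in QGP-1 (0 and 20 of the list genes) and 229 lower and 29 higher in BON-1 (5 and 1 of the list genes). Without RN7SK, RN7SL1 and RN7SL2 the medians were 0.29 and −0.05, with 668 lower and 6520 higher in QGP-1 (17 list genes higher) and 2395 lower and 1410 higher in BON-1 cells. With library size in place of TMM, 2487 genes were lower and 2740 higher in QGP-1 and 3149 lower and 2030 higher in BON-1 cells. The main fits called 2676 lower and 2610 higher in QGP-1 and 2677 lower and 2488 higher in BON-1 cells. Relative to the TPM medians, CGA and NTS in BON-1 cells stood at 0.78 and 0.79. The log2 level ratio of QGP-1 over BON-1 with vehicle moved from −0.50 to −0.87 for NTS and from 7.15 to 6.80 for CGA by TPM without those RNAs. The cause of these shifts was not tested beyond that.

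The replicate number is shared between vehicle and DOX, and the deviations of same-numbered libraries correlated at −0.10, 0.16 and 0.12 in QGP-1 and −0.07, −0.04 and 0.11 in BON-1 cells. Deviations from means of 3 libraries cannot show whether same-numbered libraries shared a culture or a preparation. The main fits did not pair them. With the replicate block, 2738 genes were lower and 2749 higher in QGP-1 and 2656 and 2408 in BON-1 cells.

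Among genes not called in the line concerned, the sign turned for GAL in QGP-1 cells on TPM (0.61, and 0.22 without the 3 RNAs) and for ADM in QGP-1 cells (0.20 without the 3 RNAs, −0.25 to 0.049 when leaving out 1 library). RAMP2 in QGP-1 cells ranged from −0.41 to 0.85 when leaving out 1 library. In BON-1 cells SORT1 turned to −0.025 with library size, −0.00027 without a filter, −0.33 on TPM and −0.020 without the 3 RNAs, with −0.018 to 0.072 when leaving out 1 library, and SPX turned to −0.022 with library size, −0.050 with the replicate block and −0.036 without the 3 RNAs, with −0.40 to 0.28 when leaving out 1 library. PCSK1 and PCSK2 in QGP-1 cells turned to 0.63 and 0.57 on TPM and to 0.21 and 0.19 without the 3 RNAs. STC1 and SCG3, called in BON-1 cells, turned to −0.085 and −0.099 on TPM. In the same limma fit on TPM the BON-1 calls of ADM (0.64), CALCRL (0.25), FURIN (−0.63), IGF2 (−0.68), PAM (−0.69), PCSK1 (−0.58), PCSK1N (0.47), PTHLH (0.37), SCG2 (0.086), SSTR1 (−0.77), SSTR2 (−0.58), SSTR5 (−0.52) and SYP (−0.64) were lost, as was that of CALCB in QGP-1 cells (−0.098). Without the 3 RNAs SSTR2 (−0.65), STC1 (0.22), SCG3 (0.23) and CALCR (0.58) lost theirs in BON-1 cells and CALCRL (−0.28) in QGP-1 cells. The BON-1 calls of SSTR2 (−0.74) and SSTR5 (−0.68) were lost in DESeq2. Depth limits TAC1 in QGP-1 cells (14 to 40 counts), CGA in BON-1 cells (24 to 66 counts) and the members at or under 3 counts.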
